A study of Mus musculus with 8 samples.

Results

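The SLC25 family is the set of carrier proteins that move metabolites across the inner membrane of the mitochondrion. Its genes were taken as those whose symbol in the array annotation is Slc25a followed by a number, which gave 44 of the 18193 genes measured. Affymetrix arrays were hybridised with RNA of epididymal white fat, a depot next to the testis, from LPA4-KO mice (genotype Lpar4 -/Y) and from wild-type (WT) mice. All were male littermates on a C57BL/6 background, 12 weeks old and fed standard chow. The LPA4-KO mice lack LPA4, a receptor for lysophosphatidic acid, and the labels name no Cre or promoter that would limit the loss to one cell type. Each group held 4 mice with 1 array each. The question put to the carriers was which of them are expressed at another level in fat that lacks the receptor.

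Most SLC25 carriers exchange one small molecule for another, and the family is usually sorted by substrate. In a fat cell the citrate carrier feeds acetyl groups to fatty acid synthesis in the cytosol, the carnitine-acylcarnitine carrier brings fatty acids in for oxidation, and the ADP/ATP carriers return ATP from the matrix to the cytosol. Other members carry phosphate, dicarboxylates, amino acids, nucleotides and cofactors, and a few sit outside the inner membrane.

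Array values are log2 values as deposited, and group means are given ± SD with n = 4. Differences are LPA4-KO minus WT ± SE from limma. A gene was called when its Benjamini-Hochberg adjusted p was under 0.05 over all 18193 genes. Among all genes, 77.9% were nearly constant, with the 8 arrays within 0.1 log2 of each other, and these include genes with high values, so a flat value is no measurement of equal expression. The other 4029 genes are called varying, and a second fit was restricted to them. A level on these arrays belongs to its own probe set, a group of short probes for one transcript, and levels of different genes are not compared.

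At 1 of its 3 probe sets Lpar4 averaged 5.80 ± 0.05 in the LPA4-KO arrays and 6.52 ± 0.03 in the WT arrays (-0.71 ± 0.03, limma adjusted p = 0.0033). The differences at its other probe sets were positive, 0.68 ± 0.24 and 0.48 ± 0.25, and did not pass (limma adjusted p = 0.23 and 0.39), and which of them lie in the deleted part is not given in the sources used here. Correlations between arrays over varying genes were 0.949 or more. The white adipocyte markers Adipoq and Fabp4, both nearly constant, read 13.83 and 13.40, the brown adipocyte marker Ucp1, nearly constant as well, read 6.01, and none of 6 testis germ cell or 4 epididymis markers varied. Flat values do not show whether testis or epididymis cells were present, and the levels of these genes are not compared. In bulk tissue, fewer cells of a type and less RNA per cell cannot be told apart.

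Of the 44 SLC25 genes, 19 varied (43.2%, against 22.1% of all genes). Over all genes 3 members rose in LPA4-KO fat and 0 fell: Slc25a1, the citrate carrier, Slc25a20, the carnitine-acylcarnitine carrier, and Slc25a5, an ADP/ATP carrier. That is 6.82% of the members, where 1.31% of all genes were called, 0.863% higher and 0.451% lower, and 3.08% of varying genes higher. The differences were small, 1.24- to 1.29-fold. At an unadjusted p under 0.05 in limma 12 of the 19 varying members passed, 10 higher and 2 lower, where 19.3% of varying genes passed as higher and 20.5% as lower. In the fit of varying genes alone 6 members passed as higher and 1 as lower, together 36.8% of 19, where 21.3% of varying genes passed, 9.78% higher and 11.5% lower.

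Among the 19 varying members 15 differences were positive and 4 negative, where 46.6% of varying genes were positive. Their median difference was 0.18 log2, against -0.03 over all varying genes. The groups did not overlap in 8 members (42.1%, against 28.9% of varying genes), in 7 of them with LPA4-KO above WT (14.4% of varying genes). Averaged over the 19 members, with each gene set against its WT mean, the LPA4-KO arrays stood at 0.14, 0.13, 0.12 and 0.21, and the WT arrays at 0.03, 0.00, -0.03 and 0.00. The same average over all varying genes ran from -0.05 to -0.02 in the LPA4-KO arrays.

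**Figure D1:**
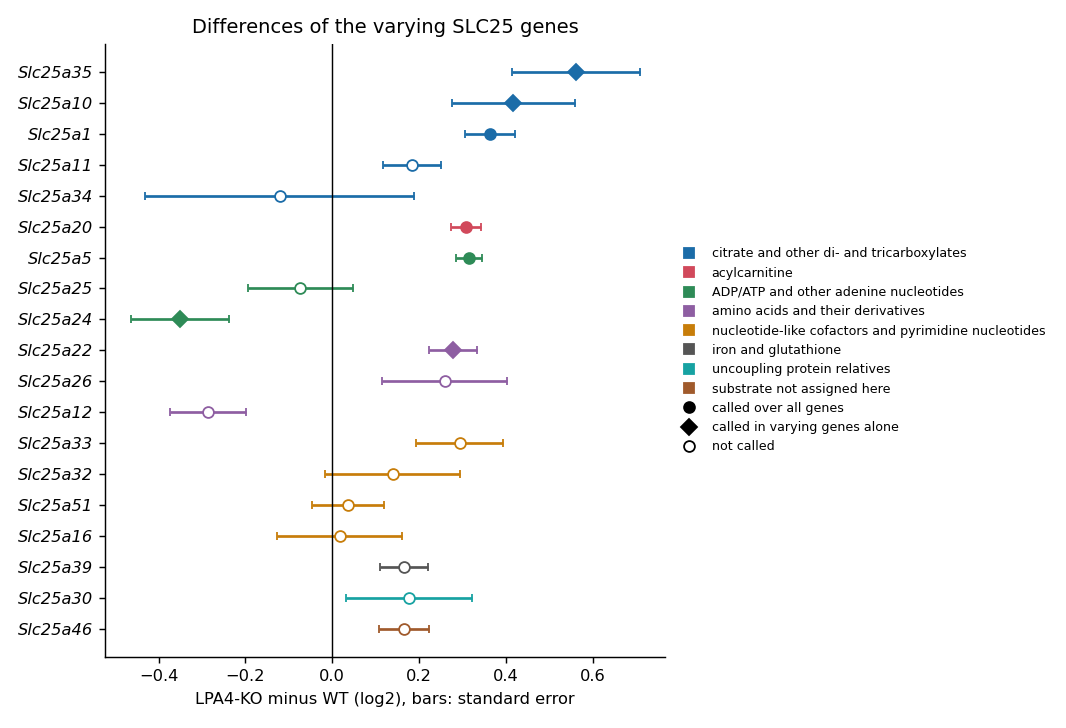
Difference between LPA4-KO and WT (log2, x axis) for the 19 varying SLC25 genes (y axis), coloured by substrate, with bars for the standard error. Filled circles mark the 3 genes called over all genes, diamonds the 4 that passed in the varying genes alone, and 15 of the 19 points lie to the right of 0.

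**Figure D2:**
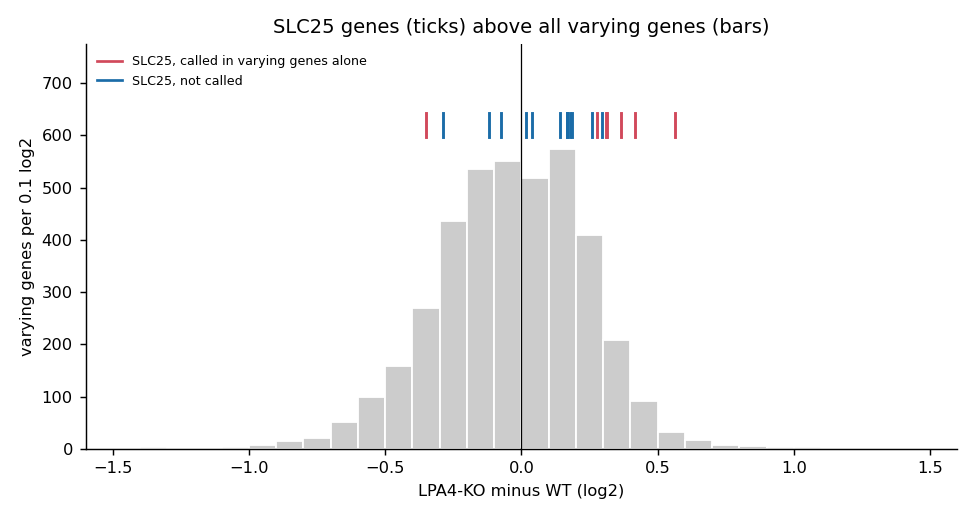
Number of varying genes (y axis) per bin of difference in log2 (x axis), as grey bars, with a tick above them for each of the 19 varying SLC25 genes. Most ticks lie to the right of 0, red ticks mark the 7 members that passed in the varying genes alone, and 1 varying gene lies outside the plotted range.

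The stretches before the start sites of the 3 genes that rose are shown because these genes were higher together. Each is the 250 bases upstream of the RefSeq start in build GRCm38.p6, written 5′ to 3′ on the strand of the gene: chr16:17928220-17928469 on the minus strand for Slc25a1, chrX:36795347-36795596 on the plus strand for Slc25a5 and chr9:108661886-108662135 on the plus strand for Slc25a20. Capitals mark every match, on either strand, to the motifs searched.
Slc25a1: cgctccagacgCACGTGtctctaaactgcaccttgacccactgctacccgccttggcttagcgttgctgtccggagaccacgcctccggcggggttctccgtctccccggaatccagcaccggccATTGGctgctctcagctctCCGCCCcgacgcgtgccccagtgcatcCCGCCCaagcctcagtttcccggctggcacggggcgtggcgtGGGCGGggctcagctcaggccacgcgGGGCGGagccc
Slc25a5: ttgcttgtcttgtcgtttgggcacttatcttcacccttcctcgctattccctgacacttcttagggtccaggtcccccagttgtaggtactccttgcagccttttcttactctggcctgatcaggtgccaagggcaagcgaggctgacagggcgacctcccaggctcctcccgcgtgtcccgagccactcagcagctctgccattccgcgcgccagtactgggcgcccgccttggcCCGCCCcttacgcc
Slc25a20: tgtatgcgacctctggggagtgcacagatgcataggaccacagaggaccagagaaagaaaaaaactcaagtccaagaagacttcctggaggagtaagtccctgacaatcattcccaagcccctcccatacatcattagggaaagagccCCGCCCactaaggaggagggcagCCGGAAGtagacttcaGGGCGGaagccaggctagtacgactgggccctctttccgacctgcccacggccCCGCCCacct

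The motifs searched were the GC box GGGCGG, the CCAAT box CCAAT, the E-box CACGTG, the ETS site CCGGAAG, the sterol regulatory element TCACNCCAC and the ERR half-site TCAAGGTCA. No 2 of the matches in these stretches overlapped. All 3 stretches held a GC box, with 4 matches before Slc25a1, 3 before Slc25a20 and 1 before Slc25a5. Slc25a1 also held a CCAAT box and an E-box, and Slc25a20 an ETS site. Promoters were listed for 34 SLC25 genes, and 25 of these held a GC box, against 35.4% of all genes with a listed promoter. An E-box stood in 7 of the 34 (6.86% of all genes) and an ETS site in 6 (7.83%). The CCAAT box stood in 17 (37.5% of all genes) and the sterol regulatory element in 1 (1.22%). The ERR half-site, found in 0.422% of all genes, matched none of the 34. SLC25 stretches had a median GC content of 58.0% and all stretches one of 52.4%. These matches are letters in a window and say nothing of what binds there.

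Carriers of citrate and other di- and tricarboxylates were 5 of the measured genes, and all 5 varied. In this group 1 of 5 rose over all genes and 3 passed as higher in the varying genes alone, with a median difference of 0.36 log2. Of all genes 0.863% were called higher, and of the varying genes alone 9.78%, with a median difference of -0.03 log2. Slc25a1 sends citrate to the cytosol in exchange for malate. It read 8.81, 8.73, 8.76 and 8.89 in the LPA4-KO arrays and 8.36, 8.55, 8.35 and 8.48 in the WT arrays. All LPA4-KO arrays were above all WT arrays, and the gap between the groups was 0.18 log2. The means were 8.80 ± 0.07 and 8.43 ± 0.10, and the gene rose 1.29-fold (0.36 ± 0.06, limma adjusted p = 0.048, and 0.013 in the varying genes alone). In a fit of every named probe set on its own its adjusted p in limma was 0.055.

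Slc25a10 is the dicarboxylate carrier, which exchanges malate or succinate for phosphate and is known to be abundant in white fat. Its LPA4-KO arrays read 8.51, 8.30, 8.34 and 7.94 and its WT arrays 7.69, 7.74, 8.03 and 7.97. LPA4-KO replicate 4 lay within the WT range and the other LPA4-KO arrays above it. The difference was 0.42 ± 0.14 (limma adjusted p = 0.20, and 0.048 in the varying genes alone). With 1 array left out, the second of these calls held only without LPA4-KO replicate 4. In a fit of varying probe sets the same probe set did not pass (limma adjusted p = 0.052).

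Slc25a35 encodes a carrier placed here by its relatives, with a substrate that is not well defined. It had the largest difference of the 19 members, 0.56 ± 0.15, or 1.48-fold (limma adjusted p = 0.12, and 0.024 in the varying genes alone). The LPA4-KO arrays read 7.54, 7.21, 7.29 and 7.25 and the WT arrays 6.56, 6.50, 6.99 and 6.99. The groups did not overlap, though WT replicates 1 and 2 were lower than WT replicates 3 and 4. Leaving out LPA4-KO replicate 1 ended the call in the varying genes (adjusted p = 0.063), and leaving out any other array did not.

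Slc25a11, the oxoglutarate carrier of the malate-aspartate shuttle, read 8.84, 8.81, 8.96 and 8.88 in LPA4-KO and 8.63, 8.55, 8.77 and 8.81 in WT arrays. The groups touched without overlapping, with a gap of 0.0013 log2. The difference of 0.18 ± 0.07 did not pass (limma adjusted p = 0.23). Slc25a34, a close relative of Slc25a35, had 1 high array in each group and a difference of -0.12 ± 0.31.

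**Figure D3:**
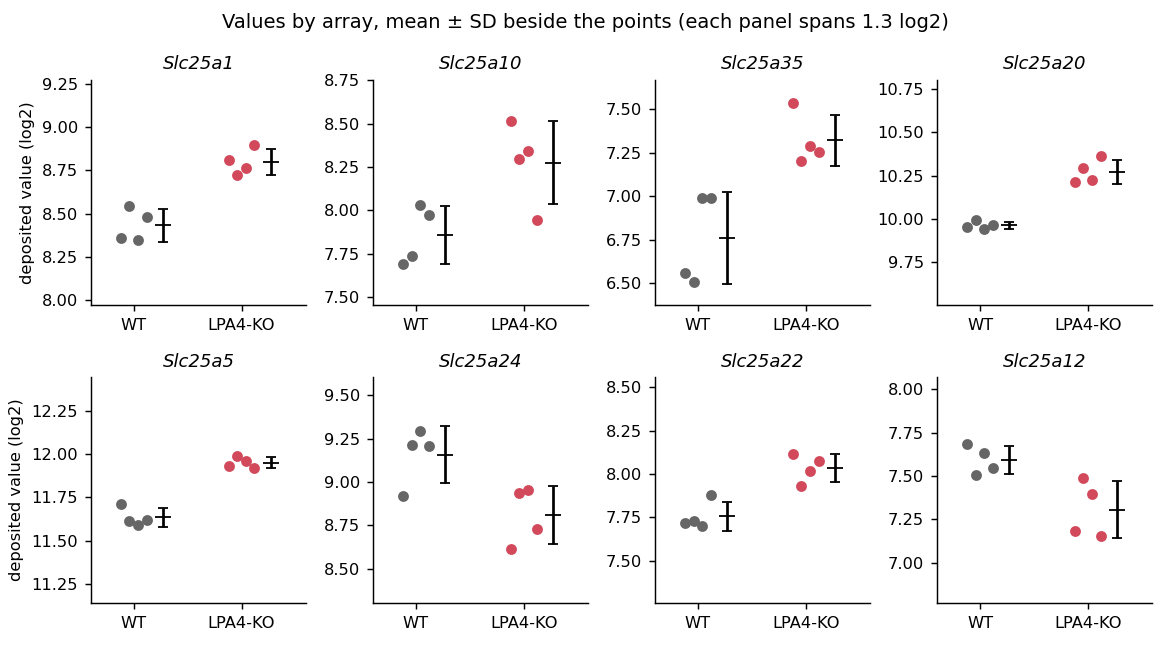
Deposited log2 value (y axis) of 8 SLC25 genes in each array, WT in grey and LPA4-KO in red (x axis), points in order of replicate number, with mean ± SD beside them. Slc25a1, Slc25a20, Slc25a5, Slc25a35 and Slc25a22 have all LPA4-KO points above all WT points, Slc25a12 has all below, and Slc25a10 and Slc25a24 overlap.

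The acylcarnitine group held 1 gene. Slc25a20 takes acylcarnitines into the matrix and carnitine out, the step between the carnitine palmitoyltransferases of the outer and inner membrane. It read 10.21, 10.29, 10.22 and 10.36 in LPA4-KO and 9.95, 9.99, 9.95 and 9.97 in WT arrays. WT arrays lay within a narrow band and every LPA4-KO array stood at least 0.22 log2 above it. The gene rose 1.24-fold, from 9.96 ± 0.02 to 10.27 ± 0.07 (0.31 ± 0.03, limma adjusted p = 0.029). Its second probe set also had groups that did not overlap and a difference of 0.21 ± 0.05. This did not pass among all probe sets (limma adjusted p = 0.12) or among varying probe sets (0.060).

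Among 8 carriers of ADP/ATP and other adenine nucleotides 3 varied, and they went different ways. Slc25a5 encodes ANT2, the ADP/ATP exchanger typical of proliferating cells. It read 11.93, 11.99, 11.96 and 11.92 in LPA4-KO and 11.71, 11.61, 11.59 and 11.62 in WT arrays. The highest WT array was 0.21 log2 below the lowest LPA4-KO array. Slc25a5 rose 1.24-fold, from 11.64 ± 0.05 to 11.95 ± 0.03 (0.31 ± 0.03, limma adjusted p = 0.023).

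Slc25a5 was measured by 8 probe sets, all of which varied and separated the groups, with differences from 0.28 to 0.38 log2. When all 34945 named probe sets were fitted, 6 of the 8 were called higher (limma adjusted p from 0.027 to 0.12 over the 8), where 0.612% of probe sets were. In the varying probe sets alone all 8 were, against 8.35%. Most of these probe sets, among them the one that stands for the gene, carry the suffix _x_at, which marks probes that can match other sequences. RefSeq lists pseudogenes named after Slc25a5, so the signals of these probe sets may be shared. The probe sets without this suffix differed by 0.38 ± 0.05 and 0.34 ± 0.05 (limma adjusted p = 0.038 and 0.036 among all probe sets). Whether they match other sequences was not tested. The 8 probe sets come from the same arrays and are not replicates. Slc25a5 and Lpar4 both lie on the X chromosome, with 441 protein-coding genes between them in RefSeq.

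Slc25a24 encodes a calcium-regulated carrier that exchanges ATP-magnesium for phosphate and so sets the size of the adenine nucleotide pool of the matrix. It was the 1 member that passed as lower in the varying genes alone. The LPA4-KO arrays read 8.61, 8.94, 8.95 and 8.73 and the WT arrays 8.92, 9.21, 9.30 and 9.21. WT replicate 1 lay within the LPA4-KO range, and the other WT arrays lay above it. The difference was -0.35 ± 0.11 (limma adjusted p = 0.19, and 0.047 in the varying genes alone), and with 1 array left out the call held only without WT replicate 1. At its other probe set the groups did not overlap and the difference was -0.46 ± 0.13 (limma adjusted p = 0.15 among all probe sets, and 0.033 among varying probe sets, of which 10.5% passed as lower). In that fit of varying probe sets the probe set that stands for the gene did not pass (limma adjusted p = 0.051).

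All 8 markers of adipocyte progenitors and fibroblasts had negative differences, where 53.4% of varying genes did, with a median difference of -0.36 log2. So had all 5 mesothelial markers (median -0.64), the 5 macrophage markers that varied (-0.29) and the 2 endothelial markers that varied (-0.46). In the varying genes alone 2 mesothelial, 2 macrophage and 0 endothelial markers passed as lower. Over all genes 1 of the 8 progenitor and fibroblast markers fell, where 0.451% of all genes did. In the varying genes alone 4 of the 8 passed as lower, where 11.5% did. The summed log2 level of these 8 ran from 73.8 to 76.7 in LPA4-KO and from 77.7 to 80.1 in WT arrays. The summed level of 6 macrophage markers ran from 59.4 to 60.3 and from 60.4 to 61.7, and that of 5 mesothelial markers from 38.6 to 41.5 and from 41.1 to 45.5. The 5 endothelial markers summed to between 43.9 and 45.4 in LPA4-KO and between 45.1 and 46.5 in WT arrays, and the 5 skeletal muscle markers to between 33.4 and 35.3 and between 34.7 and 35.6. For 7 white adipocyte markers the ranges were 85.6 to 86.1 and 84.7 to 86.4, and Lep alone spanned 1.52 log2 over the 8 arrays. Of the 5 white adipocyte markers that varied 4 had positive differences, none of the 5 passed in either fit, and their median was 0.12 log2. Retn, which encodes resistin, differed by 0.18 ± 0.06 with all LPA4-KO arrays above all WT arrays (limma adjusted p = 0.18, and 0.054 in the varying genes alone), Cidec, a lipid droplet gene, by 0.17 ± 0.07, and Lep, which encodes leptin, by -0.32 ± 0.36. For 7 brown or beige markers the summed levels ran from 45.8 to 47.4 in LPA4-KO and from 45.4 to 45.8 in WT arrays. Of these markers 3 varied, all 3 with positive differences (median 0.28 log2), and none passed in either fit. Cox8b read 7.79 in LPA4-KO and 7.38 in WT arrays (0.41 ± 0.17, limma adjusted p = 0.29, and 0.085 in the varying genes alone). Ucp1, Elovl3, Cox7a1 and Dio2 were nearly constant. The part of any of these lists in the carriers' differences was not tested.

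The remaining adenine nucleotide carriers did not pass in either fit. Slc25a25, a relative of Slc25a24, differed by -0.07 ± 0.12 (limma adjusted p = 0.83). Slc25a4, which encodes ANT1 of heart and muscle, was nearly constant at all 4 of its probe sets, among them 1 at 11.33 in both groups, and Slc25a31, the ADP/ATP carrier of the testis, was nearly constant as well. So were Slc25a17 of the peroxisome, Slc25a23 and Slc25a41. The phosphate carrier Slc25a3, which supplies phosphate for ATP synthesis, read 11.79 in both groups and spanned 0.00021 log2. Whether Slc25a3 and Slc25a4 differ can therefore not be read from this table.

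**Figure D4:**
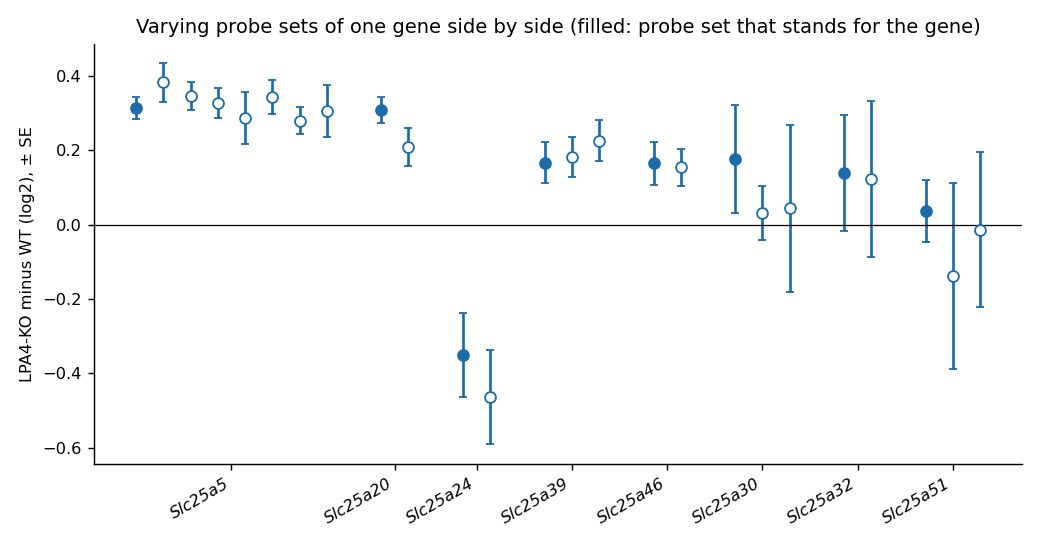
Difference between LPA4-KO and WT (log2 ± SE, y axis) for each varying probe set of the 8 SLC25 genes with more than 1 (x axis), filled where the probe set stands for the gene. All 8 probe sets of Slc25a5 lie between 0.28 and 0.38, and both probe sets of Slc25a24 lie below 0.

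Of 10 carriers of amino acids and their derivatives 3 varied, and 0 of 10 passed over all genes, where 1.31% of all genes did. Slc25a22 brings glutamate into the matrix together with a proton. It read 8.11, 7.93, 8.02 and 8.08 in LPA4-KO and 7.71, 7.73, 7.70 and 7.88 in WT arrays. All LPA4-KO arrays were above WT, by at least 0.05 log2. The difference was 0.28 ± 0.06 (limma adjusted p = 0.074, and 0.028 in the varying genes alone), and that second call held without LPA4-KO replicate 2, WT replicate 1 or WT replicate 4 and ended without any of the other 5 arrays.

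Slc25a12, named here after its values were seen, encodes a calcium-stimulated aspartate-glutamate carrier of the malate-aspartate shuttle. It read 7.18, 7.49, 7.40 and 7.15 in LPA4-KO and 7.68, 7.51, 7.63 and 7.55 in WT arrays. All LPA4-KO arrays were below WT, by as little as 0.02 log2. The difference of -0.29 ± 0.09 did not pass in either fit (limma adjusted p = 0.17, and 0.056 in the varying genes alone). Its paralogue Slc25a13 was nearly constant.

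Slc25a26, the carrier of S-adenosylmethionine, read 7.97, 7.79, 7.79 and 7.87 in LPA4-KO and 7.65, 7.20, 7.66 and 7.88 in WT arrays. WT replicate 2 was the lowest and WT replicate 4 lay among the LPA4-KO arrays. The difference was 0.26 ± 0.14 (limma adjusted p = 0.41). The ornithine carriers Slc25a2 and Slc25a15, the second glutamate carrier Slc25a18, Slc25a29 for basic amino acids, Slc25a38 for glycine and Slc25a44 for branched-chain amino acids were nearly constant at the probe set that stood for the gene. A second probe set of Slc25a44 varied and differed by 0.16 ± 0.10.

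Carriers of cofactors and pyrimidine nucleotides were 6, of which 4 varied, and none passed in either fit (0 over all genes, 0 in the varying genes alone, and Slc25a33 alone at an unadjusted p under 0.05 in limma). Of all genes 1.31% passed, and of the varying genes alone 21.3%. Slc25a51, which carries NAD into mitochondria, read 10.78, 10.62, 10.57 and 10.74 in LPA4-KO and 10.73, 10.79, 10.49 and 10.55 in WT arrays. The groups overlapped throughout and the difference was 0.04 ± 0.08, with 2 other probe sets at -0.14 ± 0.25 and -0.01 ± 0.21. Slc25a16, linked to coenzyme A, read 9.63, 9.35, 9.20 and 9.33 against 9.57, 9.55, 9.14 and 9.17, a difference of 0.02 ± 0.14. In both genes the arrays within a group spread wider than the groups differed. Slc25a32, the carrier of folate and flavin cofactors, and Slc25a33, for pyrimidine nucleotides, differed by 0.14 ± 0.16 and 0.29 ± 0.10, and Slc25a36 and Slc25a42 were nearly constant.

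Slc25a39, which imports glutathione, was the 1 of 4 iron and glutathione carriers that varied. It read 10.68, 10.63, 10.51 and 10.64 in LPA4-KO and 10.55, 10.43, 10.34 and 10.49 in WT arrays. LPA4-KO replicate 3 lay in the WT range and the other 3 above it. The difference of 0.17 ± 0.06 did not pass (limma adjusted p = 0.20), and 2 further varying probe sets differed by 0.18 ± 0.05 and 0.23 ± 0.06. Its paralogue Slc25a40 and the iron carriers Slc25a28 and Slc25a37 were nearly constant.

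Slc25a30, a relative of the uncoupling proteins, read 8.59, 8.79, 8.56 and 9.16 in LPA4-KO and 8.74, 8.59, 8.44 and 8.61 in WT arrays. The groups overlapped and the difference was 0.18 ± 0.15, while its other varying probe sets stood at 0.03 ± 0.07 and 0.04 ± 0.23. Slc25a14 and Slc25a27, of the same branch, were nearly constant. Slc25a46 lies in the outer membrane and takes part in mitochondrial fusion and fission. It read 9.70, 9.80, 9.79 and 9.94 in LPA4-KO and 9.70, 9.68, 9.62 and 9.56 in WT arrays, touching without overlap (0.17 ± 0.06, limma adjusted p = 0.21). Slc25a45, Slc25a47, Slc25a48, Slc25a53 and Slc25a54, given no substrate here, were nearly constant. In all, the 25 nearly constant members differed by at most 0.0027 log2, and the smallest of their adjusted p in limma was 0.15. The varying members spanned at least 0.29 log2, so no member lay near the 0.1 log2 limit.

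Genes whose products make, use or stand beside the carriers' substrates were listed apart, and 34 of 42 were measured. Over all genes 2 rose and 0 fell, where 0.863% of all genes were called higher and 0.451% lower. In the varying genes alone 8 of 24 passed as higher and 0 as lower, where 9.78% of varying genes passed as higher and 11.5% as lower. Of the 24 differences 19 were positive, where 46.6% of varying genes were, and their median was 0.18 log2. Around the citrate carrier 6 of the 7 varying genes passed as higher in the varying genes alone, to be read against the same 9.78%. Mdh1, the cytosolic malate dehydrogenase, read 11.63, 11.67, 11.64 and 11.83 in LPA4-KO and 11.18, 11.31, 11.28 and 11.23 in WT arrays. The groups did not overlap and Mdh1 rose 1.36-fold (0.44 ± 0.05, limma adjusted p = 0.029).

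The other 5, named after their values were seen, were Fasn, the fatty acid synthase (1.08 ± 0.26), Acaca, the acetyl-CoA carboxylase (0.42 ± 0.08), Me1, the malic enzyme (0.31 ± 0.05), Cs, the citrate synthase (0.30 ± 0.06), and Mdh2, the mitochondrial malate dehydrogenase (0.21 ± 0.04). Acly, which splits the exported citrate, was nearly constant at the probe set that stood for the gene, 1 of its 6. In the carnitine system Cpt2, which rebuilds acyl-CoA in the matrix after Slc25a20, differed by 0.35 ± 0.07 (limma adjusted p = 0.076, and 0.018 in the varying genes alone). Cpt1a, the transferase before the carrier, differed the other way, by -0.31 ± 0.10, and did not pass (limma adjusted p = 0.19, and 0.052 in the varying genes alone). It is named here after its values were seen.

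All 3 outer membrane channels had positive differences, and Vdac2 rose (0.19 ± 0.03, limma adjusted p = 0.040) with LPA4-KO arrays at 11.12, 11.15, 11.24 and 11.18 and WT arrays at 11.01, 10.96, 10.96 and 11.01. Got2, the mitochondrial aspartate aminotransferase that works with the aspartate-glutamate carrier, differed by -0.23 ± 0.06 (limma adjusted p = 0.13, and 0.055 in the varying genes alone). The pyruvate carrier gene Mpc1 differed by 0.19 ± 0.13, the adenylate kinase gene Ak3 by -0.26 ± 0.12 and Ucp3, an uncoupling protein, by -0.18 ± 0.22. Mtch2, an outer membrane relative of the carriers, differed by 0.20 ± 0.07 and Fech, the ferrochelatase, by 0.09 ± 0.04. None of these 5 passed in either fit, while Mcu, the calcium uniporter, was nearly constant at the probe set that stood for the gene.

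**Figure D5:**
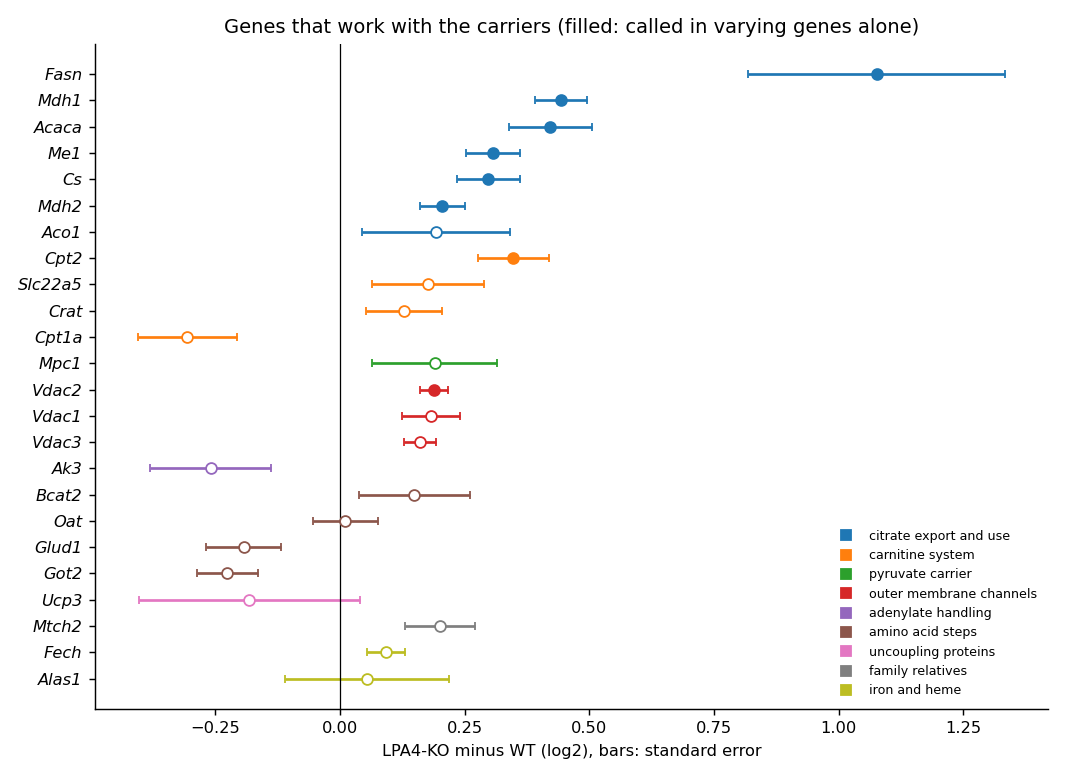
Difference between LPA4-KO and WT (log2, x axis, bars for the standard error) for the 24 varying genes that work with the carriers (y axis), coloured by role and filled where the gene passed in the varying genes alone. The 6 filled points of citrate export and use lie between 0.21 and 1.08, and Cpt1a and Cpt2 lie on opposite sides of 0.

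The calls over all genes rested on the full set of arrays. Without any 1 array at most 1 of the 3 members passed: Slc25a5 without WT replicate 1, Slc25a20 without LPA4-KO replicate 4, and none without any of the other 6. Adjusted p then reached 0.064 for Slc25a5, 0.076 for Slc25a20 and 0.13 for Slc25a1, and all 3 kept their direction. The loss of calls was general. Among all genes those called higher went from 157 to between 8 and 70, and those called lower from 82 to between 1 and 18. In the varying genes alone Slc25a1, Slc25a5 and Slc25a20 passed without each of the 8 arrays, with limma adjusted p of at most 0.038.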

How the data were processed

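The deposited table holds 1 value per probe set and array, used as log2 values, with the authors' background correction, normalization and log base not given in the sources used here. R 2.14.0 is named in the submitters' processing notes. The log2 scale was read from the values, 5.27 to 14.07. Genes came from the platform annotation, and each was represented by the probe set with the highest mean. Probe sets with several genes were left out, among them 1 shared with a member. All 44 members matched RefSeq (GRCm38.p6) by Entrez number.

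Groups followed the genotype in the labels. Tests used limma 3.58.1 in R 4.3.3 (lmFit, eBayes with trend, no block), and steps were tested on simulated data. Array number limits the precision. The members and lists were chosen with earlier results of these data known. Named members passed in either fit or were 1 of the 2 varying members with the highest value in their substrate group. Named partner genes were called over all genes or had the smallest p of their heading. Exceptions were Fasn, Acaca, Me1, Cs, Mdh2 and Cpt1a, named after their values were seen, and Acly, also outside this rule. Slc25a12, Slc25a25, Slc25a32, Slc25a33 and Slc25a34 were named after their values were seen. Alternatives covered level filter, varying genes, scaling, variance model, array weights, replicate number as a block, probe sets, thresholds and each array left out. The block and the left-out arrays within varying genes were added after seeing the data.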

Additional observations from a re-analysis of the deposited data

Results flagged for a closer look

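Of 38 groups of 4 arrays of varying SLC25 genes, 4 held an array far from the other 3, where chance gives about 1 in 20. Slc25a34 had 1 in each group: LPA4-KO replicate 4 at 7.57, with the other LPA4-KO arrays between 6.47 and 6.62, and WT replicate 2 at 7.47, with the other WT arrays between 6.70 and 6.76. Slc25a32 stood at 8.0 in WT replicate 1, with the other WT arrays between 7.40 and 7.45. Slc25a22 stood at 7.88 in WT replicate 4, with the other WT arrays between 7.70 and 7.73.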

How the results depend on the processing

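The count of SLC25 genes called higher was 3 over all genes and 6 in the varying genes alone, 7 there after median centring and 7 after quantile normalization. Both of these steps also raised the share of all varying genes called higher above 9.78%. Median centring over all genes gave 31, more than the 19 members that vary, with 2 lower. It called a larger share of all 18193 genes higher than of the 44 members, so this count does not set the carriers apart. An adjusted p under 0.01 gave 0 members, and 0 of all genes in either direction. With the replicate number as a block 0 members were called higher, and 0 of all genes were called in either direction. In the varying genes alone the block gave 5 members called higher. The share of all varying genes called higher also fell there, below 9.78%. Members called lower were 0, but 1 in the varying genes alone, also there after quantile normalization and with the block. Leaving out 1 array gave 0 to 1 called higher, or 3 to 6 in the varying genes alone, and 0 to 1 called lower there.

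Partner genes called higher were 2, but 6 among genes above the median level, 8 in the varying genes alone (9 centred, 8 quantile normalized), 21 after median centring (2 lower), 0 with the block (6 in the varying genes alone), 0 at 0.01 and 8 at 0.1. Median centring called a larger share of all 18193 genes higher than of the 34 measured partner genes. The block and the 0.01 limit called 0 of all genes. The level filter and the 0.1 limit raised the count of all genes called higher as well. For the partner genes, leaving out 1 array gave 0 to 1 called higher, or 5 to 8 in the varying genes alone, with 0 to 3 called lower there. The median difference of the varying members was 0.18, 0.13 with the mean of all probe sets of a gene, and 0.16 to 0.23 with 1 array left out. That mean turned Slc25a51 to -0.038. With 1 array left out 4 members that were not called took either sign: Slc25a16 from -0.067 (also -0.057 and -0.047) to 0.089, Slc25a51 from -0.011 to 0.087, Slc25a25 from -0.16 to 0.0079 and Slc25a34 from -0.38 to 0.064. The other 15 varying members kept their direction in every alternative run. Lpar4 kept its call except with the block (-0.71, adjusted p = 0.085), and the level filter left its probe set out. Same-numbered arrays deviated together with correlations of 0.02, 0.08, 0.24 and -0.18. For LPA4-KO replicates 2 and 3 the closest WT array was the same-numbered one. Such correlations cannot show whether the numbers pair the mice. Signal over background was not tested.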
